A study of Mus musculus with 16 samples.

Results

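The proteins of the small subunit of the cytosolic ribosome are encoded in the mouse by the Rps genes, by Rpsa and by Fau, and 34 protein-coding genes of this kind were found among the 46078 genes of the count table. They were taken by symbol from the GENCODE annotation, without the S6 kinase genes (Rps6k) and Rps19bp1, and no measured value entered the choice. All 34 had reads in every library and passed the filter on low counts in every comparison.

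The small subunit, called 40S, binds the mRNA and holds the place where codons are read. Its proteins are laid around the 18S rRNA in a head, and in a body with a platform, and each is needed in one copy per subunit. Their mRNAs start with a pyrimidine tract that places their translation under the control of mTOR and LARP1. Haematopoietic stem cells (HSCs) are known for a low rate of protein synthesis, and loss of one copy of genes such as RPS19 causes Diamond-Blackfan anaemia in humans.

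Pools of 30 HSCs (LSK cells without CD48 and with CD150) were sorted from tibia, femur and humeri of untreated C57/Bl6 mice. Pools came from the bone fraction (endosteal BM) or the marrow fraction (central BM) of WT mice and of mice lacking Gfra2, a receptor for neurturin needed by cholinergic neurons. The ages of the mice for this experiment are not given in the sources used here. Libraries were made by Smart-seq2, in which polyadenylated RNA is copied from an oligo-dT primer and amplified by PCR, and 4 endosteal WT, 4 central WT, 4 endosteal Gfra2-/- and 3 central Gfra2-/- libraries were used, and 1 more labelled sample was not analysed here. The libraries of each group are called A to D. Nothing says which pools came from the same mouse, so the p-values measure the spread between these libraries.

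Reads on genes ranged from 826487 to 18550008 per library, and each central WT library had fewer than any library of the other groups, with 3367289 at most. Gfra2 had 0 to 4 reads in the WT libraries, so it could hardly be lower elsewhere, and it had 0 to 2 reads in the libraries labelled Gfra2-/- except endosteal B with 47 and endosteal D with 9. The 8 genes of the HSC list (among them Kit, Ly6a, Slamf1, Procr, Mecom, Hlf and Cd48) were detected in every group. They summed to 1446 to 3647 CPM, which for cell markers are reads scaled to the plain total of gene reads. Cd48, which the sort excluded, was at 0 to 16.3 CPM. Markers of other cells were high in single libraries. Summed B cell markers (6 genes) reached 1860 CPM and erythroid markers (6 genes) 618 CPM among the endosteal libraries labelled Gfra2-/-, both in library D, and neutrophil markers (6 genes) reached 2670 CPM in central WT library D. The group medians of these 3 sums were 0.34 to 96.8 CPM, and B cell markers also reached 413 CPM in central WT and 332 CPM in central libraries labelled Gfra2-/-. Their part in the results was not tested beyond leaving these libraries out.

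Which reads can be counted on a gene depends on its sequence, because reads were 50 bases long and a read that matches several places of the genome was not kept. Ribosomal protein genes have many processed pseudogenes, copies of their mRNA inserted elsewhere, and 112 annotated pseudogenes are named after the 34 genes. Each 50-base window of the coding sequence was therefore looked up in all GENCODE M21 transcripts. For Rps3 91.9% of 680 windows were found in no other gene, whereas for 12 genes not a single window was. The following windows contrast 1 of the former with shared ones of other members, each with the coding bases it covers and the number of other genes that hold exactly the same letters, all of them pseudogenes.
Rps3 (coding bases 1 to 50, 0 other genes): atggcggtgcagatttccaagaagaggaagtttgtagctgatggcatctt
Rps2 (coding bases 431 to 480, 16 other genes): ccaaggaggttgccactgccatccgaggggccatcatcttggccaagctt
Rps6 (coding bases 471 to 520, 13 other genes): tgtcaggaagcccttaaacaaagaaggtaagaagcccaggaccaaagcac
Rpsa (coding bases 486 to 535, 12 other genes): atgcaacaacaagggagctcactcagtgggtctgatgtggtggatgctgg
A read from such a shared window cannot be assigned to its gene. The annotation places Rps3 on chromosome 7 (GRCm38, 99477896 to 99483738, minus strand), Rps2 on chromosome 17 (24718116 to 24721929, plus strand), Rps6 on chromosome 4 (86854660 to 86857412, minus strand) and Rpsa on chromosome 9 (120127689 to 120132369, plus strand).

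The Rps27 genes show the limit most clearly. Rps27 encodes a zinc-finger protein of the platform, Rps27l a close relative known as a p53 target, and Rps27rt lies on chromosome 9 (114982366 to 114982739, minus strand) as a single-exon gene annotated as protein-coding. The first 60 coding bases of the 3 genes are given, and capitals mark bases that differ from Rps27.
Rps27: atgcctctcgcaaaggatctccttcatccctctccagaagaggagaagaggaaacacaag
Rps27rt: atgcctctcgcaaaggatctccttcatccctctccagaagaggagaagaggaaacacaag
Rps27l: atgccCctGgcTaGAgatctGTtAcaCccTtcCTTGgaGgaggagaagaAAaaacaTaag
Over the whole coding sequence of 252 bases, Rps27rt differed from Rps27 at 0 bases and Rps27l at 60, an identity of 76.2%. Reads inside the coding sequence could thus be placed on Rps27l but not on Rps27 or Rps27rt, and 0 of 203 windows of either of those 2 genes were their own, against 51.7% of the windows of Rps27l.

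The measured levels followed this order. For the members, CPM are reads scaled to a common library total with TMM factors. In CPM per kilobase of coding sequence (CPM/kb), taken as the mean over 15 libraries, Rps3, a head protein at the mRNA entry side, stood at 4012 ± 836 (SD) and Rps14, a platform protein, at 3146 ± 1206, both among the 3 highest. The 3 lowest were Rps6 with 15.1 ± 9.9, Rps25 with 23.9 ± 12.6 and Rps12 with 26.6 ± 19.0 CPM/kb, although the proteins enter the particle in equal number.

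Among the 12 genes without a window of their own, median levels over the libraries ran from 14.6 to 299.9 CPM/kb. Among the 14 genes with up to 27.0% of windows of their own they ran from 19.8 to 2379 CPM/kb. The median gene stood at 43.3 CPM/kb in the first class, at 445.9 CPM/kb in the second and at 1450 CPM/kb among the 8 genes with 48.3% or more. Across the 34 genes the share of such windows and the level had a Spearman correlation of 0.88, and within single libraries it was 0.84 to 0.90. Counted over the whole transcript, UTRs included, it was 0.68. Genes are not independent replicates, and all points share libraries and the lookup, so no test is given. Neighbours in the order mostly overlapped over libraries, as Rps14 (1264 to 4851 CPM/kb) did with Rps20 (967 to 4439 CPM/kb). Rps20, a head protein, stood above its share of 14.3% in the coding sequence. The transcript used for it is 3706 bases long with 357 coding bases, and 92.4% of its windows were found in no other gene. Whether the reads came from that long non-coding part was not tested.

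**Figure D1:**
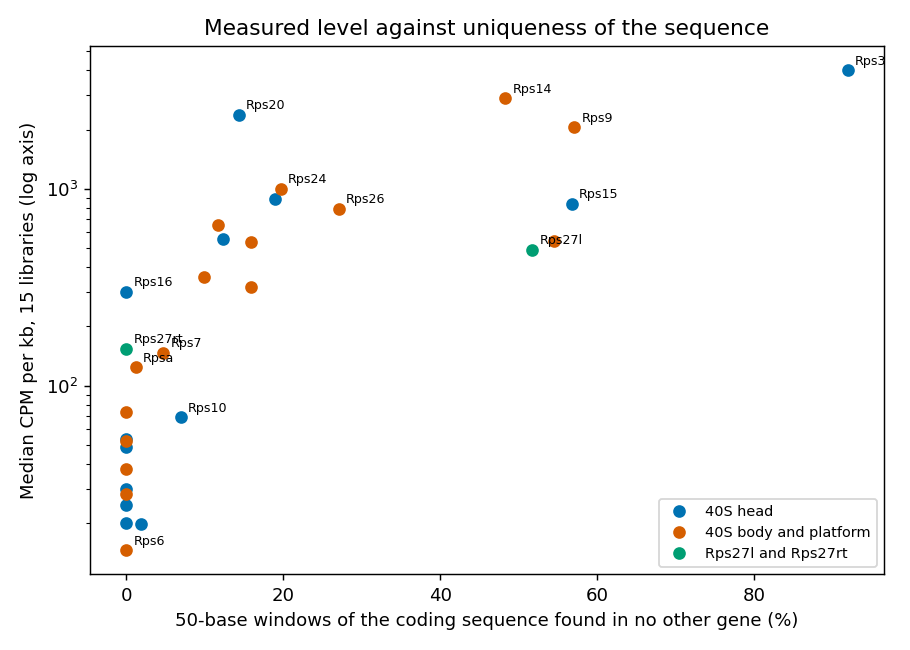
Each point is 1 of 31 genes, with the share of its 50-base coding windows found in no other annotated gene on the x axis (%) and its median level over 15 libraries on the y axis (CPM per kilobase of coding sequence, log axis). Genes at 0% lie between 14.6 and 299.9 CPM/kb, and Rps3 at 91.9% lies at 4014 CPM/kb.

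The order of levels was much the same from library to library, and 31 of the 34 genes varied less within groups than the median gene of like level. Their pooled within-group SD of log2(CPM + 1) was 0.22 to 1.08, with a median of 0.37. The most even were Rps3a1 (0.22), a body protein, and Rps7 (0.22), a body protein mutated in Diamond-Blackfan anaemia.

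**Figure D2:**
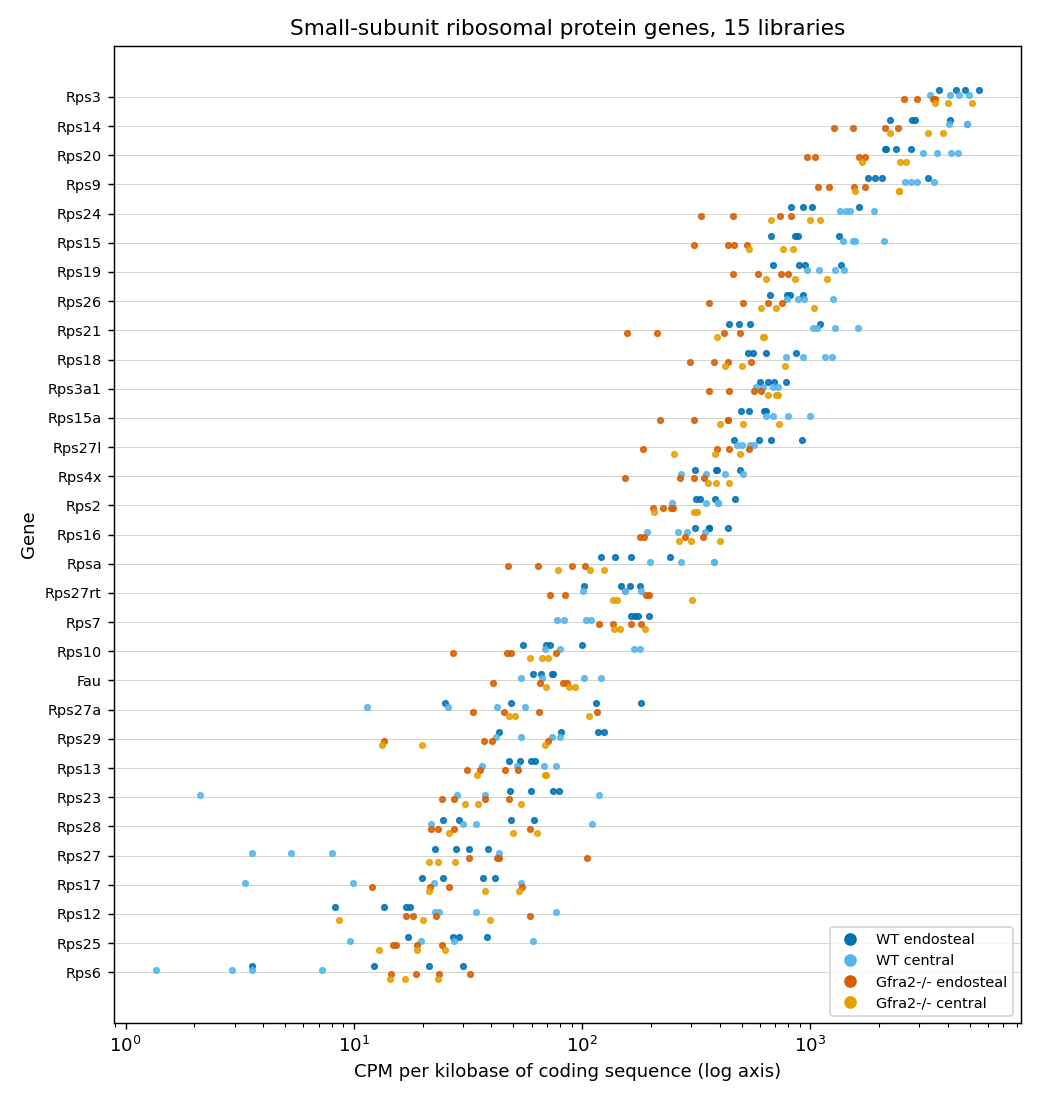
Levels of 31 genes in the 15 libraries, in CPM per kilobase of coding sequence (x axis, log scale), with genes ordered by their mean level and points coloured by group as labelled. Rps3 lies at 2567 to 5493 CPM/kb in all libraries and Rps6 at 1.35 to 32.1 CPM/kb.

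Summed, the 34 genes took the smallest share of reads in endosteal HSCs labelled Gfra2-/-. Their share of all gene reads was 1.86%, 1.56%, 1.32% and 1.57% in endosteal libraries A to D of WT mice, and 1.86%, 1.87%, 1.73% and 1.65% in central WT libraries. It was 1.16%, 0.85%, 1.20% and 0.76% in endosteal libraries A to D labelled Gfra2-/-, and 1.15%, 1.70% and 1.48% in the 3 central ones. All 4 endosteal libraries labelled Gfra2-/- were below all 8 WT libraries, and the other groups overlapped with at least one group. The group means were 1.58% ± 0.22 (SD, n = 4), 1.78% ± 0.11 (n = 4), 0.99% ± 0.22 (n = 4) and 1.44% ± 0.28 (n = 3) in the same order. The 95% Wilson interval of a single library's share reached at most 0.0281 percentage points to either side, which covers counting error only. In bulk pools, fewer cells with these mRNAs and less of them per cell cannot be told apart, and the share of reads says nothing of the amount per cell. The lowest share, 0.76%, belonged to library D, the one with B cell and erythroid markers.

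**Figure D3:**
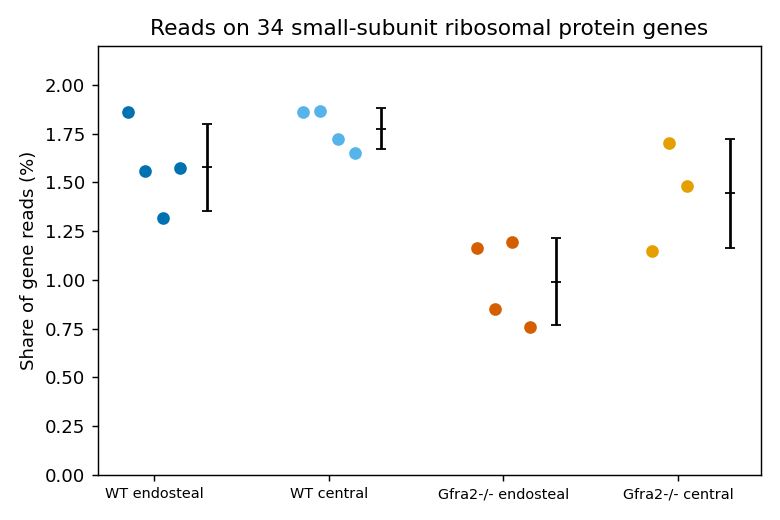
Share of all gene reads that fell on the 34 genes (y axis, %), 1 point per library, with the mean and SD beside each of the 4 groups. The endosteal libraries labelled Gfra2-/- lie at 0.76% to 1.20% and the endosteal WT libraries at 1.32% to 1.86%.

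Each gene was then compared between groups with edgeR's quasi-likelihood test, Benjamini-Hochberg adjusted over all genes tested, at a false discovery rate (FDR) of 0.1. None of the 34 genes passed in any of the 4 comparisons or in the interaction of genotype and compartment, so none can be called changed. The values below are estimates, and the smallest adjusted p of a member was 0.292. With DESeq2, run as an alternative, 2 members passed between WT compartments (4.49% of all genes), 0 between Gfra2-/- compartments (2.77%), 4 between central genotypes (5.14%), 3 between endosteal genotypes (3.72%) and 1 in the interaction (1.68%).

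The endosteal comparison of genotypes asks what HSCs near bone look like when Gfra2 is lost. Of the 34 genes 30 had a lower estimate in libraries labelled Gfra2-/- than in WT, where 48.5% of all 12970 genes tested did. The median log2 fold change of the members was -0.57, against 0.03 over all genes. At an unadjusted p under 0.05, 12 members were lower (35.3%) and 0 higher, and over all genes 3.52% were lower and 3.18% higher. Groups did not overlap for 10 members, all lower, and of all genes 3.55% were lower and 2.69% higher without overlap. Of all genes, 0 passed the FDR in edgeR.

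The head protein Rps15, at the decoding side of the subunit, had the smallest p. Its level was 579, 383, 291 and 372 CPM in endosteal WT (A to D) and 229, 189, 201 and 135 CPM in those labelled Gfra2-/-. Every library labelled Gfra2-/- was below every WT library. The log2 fold change was -1.10 (SE 0.28, adjusted p = 0.601 in edgeR).

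Rps20, a head protein, stood at 980, 766, 758 and 849 CPM in endosteal WT and at 584, 345, 621 and 374 CPM in endosteal libraries labelled Gfra2-/-. The groups did not overlap, and the log2 fold change was -0.80 (SE 0.24, adjusted p = 0.681 in edgeR). Rps3 stood at 4005, 3477, 2667 and 3172 CPM against 2556, 2143, 2499 and 1872 CPM. Its estimate was -0.55 (SE 0.18, adjusted p = 0.735 in edgeR), again without overlap. Further lower members at an unadjusted p under 0.05 were Rps2, Rps9, Rps14, Rps24, Rps15a, Rps18 and Rpsa, and their log2 fold changes were -0.64 to -1.13.

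The largest estimate upwards was that of Rps12, a head protein, at 1.06 (SE 0.88, adjusted p = 0.86 in edgeR). It was measured at 5.36, 3.26, 6.72 and 6.95 CPM in WT and at 6.70, 7.17, 9.03 and 23.4 CPM in libraries labelled Gfra2-/-, so library D alone was far above. Rps12 has no coding window of its own, and 3 other annotated genes (Rps12-ps3, Rps12l1 and Gm44510) hold all 347 of them.

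The count of lower members varied from 8 to 17 when single libraries were left out, with 17 without endosteal library C labelled Gfra2-/-. Without endosteal library D (n = 3) labelled Gfra2-/-, which had B cell and erythroid markers, 29 members had a lower estimate, the median was -0.56 and 8 were lower at an unadjusted p under 0.05. Without B and D, the libraries whose Gfra2 reads exceed those of any WT library, 28 members had a lower estimate and 3 were lower at that p. With only the libraries above 0.5% of spike-in reads, 3 against 3, these counts were 29 and 5.

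In central HSCs the comparison of genotypes gave lower estimates for 25 of 34 members, where 48.6% of all 11772 genes tested were lower, with a median of -0.39 against 0.03. At an unadjusted p under 0.05, 9 members were lower and 1 higher, and over all genes 4.14% were lower and 4.6% higher. Groups did not overlap for 10 members that were lower and 3 that were higher, against 4.44% and 7.99% of all genes. Without the filter on low counts 20 of 34 had a lower estimate, and with at least 10 counts in every library 17 of the 26 that passed did. Leaving out single libraries gave 21 to 25, and the median was -0.59 without central library B labelled Gfra2-/-. The central WT libraries were the shallowest of the series and held 0.42% to 7.1% of spike-in reads, above the 0.24% to 1.05% of the central ones labelled Gfra2-/- in all but library D, so depth and genotype cannot be told apart here. In edgeR 6 genes of the whole table passed the FDR (0.051%), and 0 members did.

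Rps15 was again first, with 670, 682, 917 and 602 CPM in central WT libraries A to D and 233, 331 and 365 CPM in the central libraries labelled Gfra2-/-. The groups were far apart, and the log2 fold change was -1.24 (SE 0.29, adjusted p = 0.292 in edgeR and 0.0384 in DESeq2). Rpsa, a body protein that is also known as a laminin receptor, stood at 334, 175, 334 and 239 CPM against 69.6, 95.9 and 110 CPM. Its estimate was the largest downwards, -1.58 (SE 0.41, adjusted p = 0.318 in edgeR and 0.0203 in DESeq2). Neither gene overlapped between the groups. Among the members DESeq2 called were Rpsa, Rps15 and Rps21, all lower, here, and Rps2 and Rps15, both lower, in endosteal HSCs.

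Rps6, the target of the S6 kinases, had the largest estimate upwards, 2.26 (SE 1.18, adjusted p = 0.622 in edgeR). It was measured at 5.43, 2.18, 2.68 and 1.01 CPM in central WT and at 17.4, 10.8 and 12.5 CPM in the libraries labelled Gfra2-/-. The groups did not overlap, but the gene has no coding window of its own and was the least read member per length.

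The genotype comparisons in the endosteal and in the central BM share no library, and can be set side by side. Their pools may come from the same mice, so the comparisons may not be independent. The central one also holds the shallow central WT libraries. Lower estimates in both were found for 23 of 34 members (67.6%), where 28% of the 11405 genes tested in both had them, and higher estimates in both for 2 members (5.88%), where 30.2% of genes had them. At an unadjusted p under 0.05, 8 members (23.5%) were lower in both and 0 higher in both, against 1.02% of genes lower in both. Rps14, Rps15, Rps18, Rps20, Rps24 and Rpsa were among them.

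**Figure D4:**
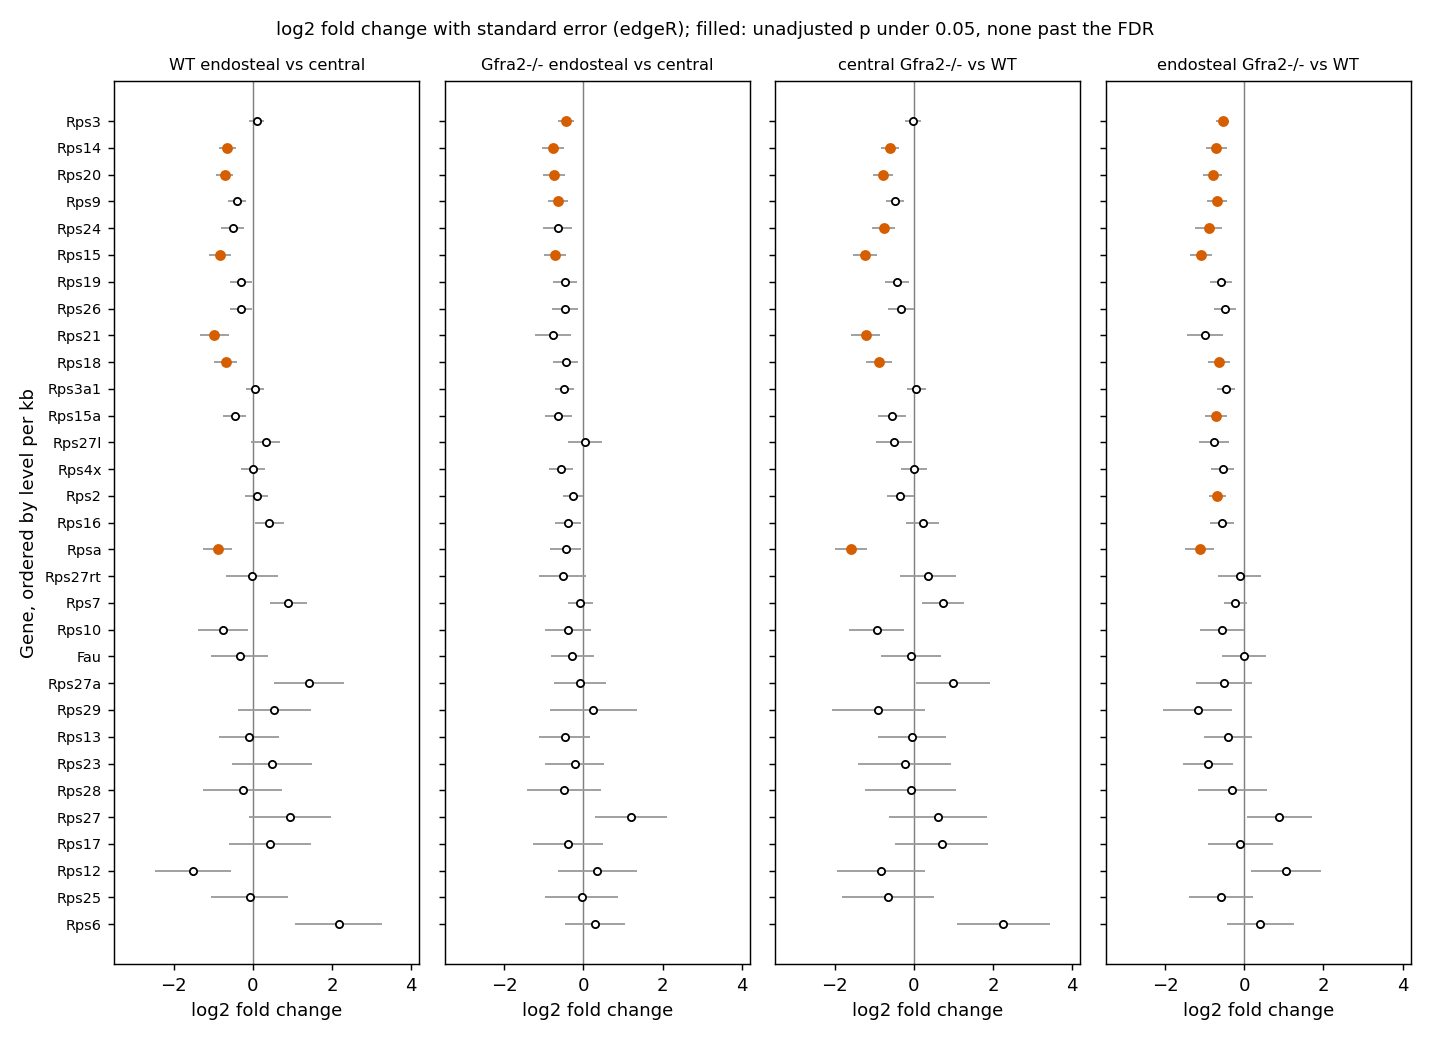
log2 fold change (x axis, points) with its standard error (bars) from edgeR for 31 genes, ordered by level per kilobase, in 4 comparisons of which the first-named group is the numerator and groups are as labelled. Filled points have an unadjusted p under 0.05 (6, 5, 7 and 10 genes from left to right), and no gene passed the FDR of 0.1.

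Between compartments of WT mice, which asks how HSCs near bone differ from those of the central marrow, the members did not share a direction. Each central WT library had fewer reads than any endosteal WT library, so depth and compartment cannot be told apart here. Estimates were lower in endosteal HSCs for 20 and higher for 14, where 48.5% of all 11181 genes tested were lower, and the median was -0.17 against 0.03. At an unadjusted p under 0.05, 7 members were lower (20.6%) and 1 higher, and over all genes 3.46% were lower and 4.43% higher. Groups did not overlap for 4 lower and 2 higher members, against 2.09% and 4.27% of all genes. Among the 12 genes without a coding window of their own, 5 estimates were lower and 7 higher (median 0.42, median SE 0.94). Of the 14 genes with up to 27.0% of such windows, 10 were lower and 4 higher (median -0.38). Of the 8 with 48.3% or more, 5 were lower and 3 higher (median -0.39). Of all genes, 0 passed the FDR in edgeR.

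Rps20 was lower in endosteal than in central WT, with 980, 766, 758 and 849 CPM against 1275, 1585, 1479 and 1107 CPM. Its groups did not overlap, and the log2 fold change was -0.72 (SE 0.21, adjusted p = 0.449 in edgeR and 0.0832 in DESeq2). For Rps15 the log2 fold change was -0.84 (SE 0.28, adjusted p = 0.483 in edgeR), and its 4 endosteal WT levels were below its 4 central ones. The largest estimates were those of Rps6 upwards (2.16, SE 1.10) and Rps12 downwards (-1.51, SE 0.97), both genes without a window of their own. In central WT libraries Rps6 had 2 to 7 reads and Rps12 7 to 90.

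The number of lower members at an unadjusted p under 0.05 was 3 without endosteal WT library B, C or D or without central WT library A, 4 without central WT library C, and 1 when only libraries with over 1500000 reads on genes were kept, which removed central WT libraries A and C. Without endosteal WT library A it was 10, and the median was -0.36, as against -0.34 without central WT library D and -0.09 to -0.11 without endosteal WT library B, C or D. Without central WT library D, which had neutrophil markers, it stayed at 7. The cause was not tested.

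Between compartments of the libraries labelled Gfra2-/-, 29 of 34 members had a lower estimate in endosteal HSCs, where 48.4% of all 13860 genes tested did, and the median was -0.45 against 0.03. At an unadjusted p under 0.05, 5 members were lower and 0 higher, against 2.05% and 2.74% of all genes. Groups did not overlap for 4 lower members and 1 higher, against 3.67% and 3.67% of all genes. Rps14, whose loss of a copy is tied to the anaemia of the human 5q- syndrome, had the smallest p. It was measured at 959, 694, 1091 and 573 CPM in endosteal and 1009, 1727 and 1483 CPM in central libraries, overlapping in 1 pair of libraries, with a log2 fold change of -0.76 (SE 0.28, adjusted p = 0.9995 in edgeR). In WT its 4 endosteal levels were 1847, 1303, 1012 and 1268 CPM and its central ones 2194, 2190, 2198 and 1826 CPM. Rps20 (-0.74, SE 0.29) and Rps15 (-0.72, SE 0.28) followed, with the same adjusted p. Rps21 had the largest estimate downwards (-0.77, SE 0.45) and Rps27 the largest upwards (1.20, SE 0.91). The lower members at that p were 5, and 0 remained without endosteal library B or D or without central library B or C, the cause of which was not tested. Without central library B the median was -0.26. With endosteal libraries B and D both left out, 25 members had a lower estimate. Of all genes, 0 passed the FDR in edgeR.

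The interaction compares the compartment difference of libraries labelled Gfra2-/- with that of WT. The WT difference holds the shallow central WT libraries, so depth and the interaction cannot be told apart. Of the members 24 had an estimate below 0, where 53.7% of all 15416 genes tested did, with a median of -0.22 against -0.12, and 2 were lower at an unadjusted p under 0.05 (5.88%) and 0 higher, where 4.41% and 2.56% of genes were. Leaving out single libraries gave 1 or 2 lower members, 18 to 28 estimates below 0 and medians from -0.06 (without endosteal WT library A) to -0.41 (without central library A labelled Gfra2-/-). The median was also -0.09 to -0.14 without central WT library D or without endosteal B, endosteal D or central B labelled Gfra2-/-. Rps3 was lower at that p (-0.56, SE 0.26, adjusted p = 0.698 in edgeR). Rps7, a body protein, had the next p (-0.99, SE 0.50, adjusted p = 0.713 in edgeR). The extremes were Rps6 (-1.89, SE 1.36) and Rps12 (1.85, SE 1.38). Without central WT library D and endosteal library D labelled Gfra2-/-, 19 members had an estimate below 0, and 1 was lower at that p.

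**Figure D5:**
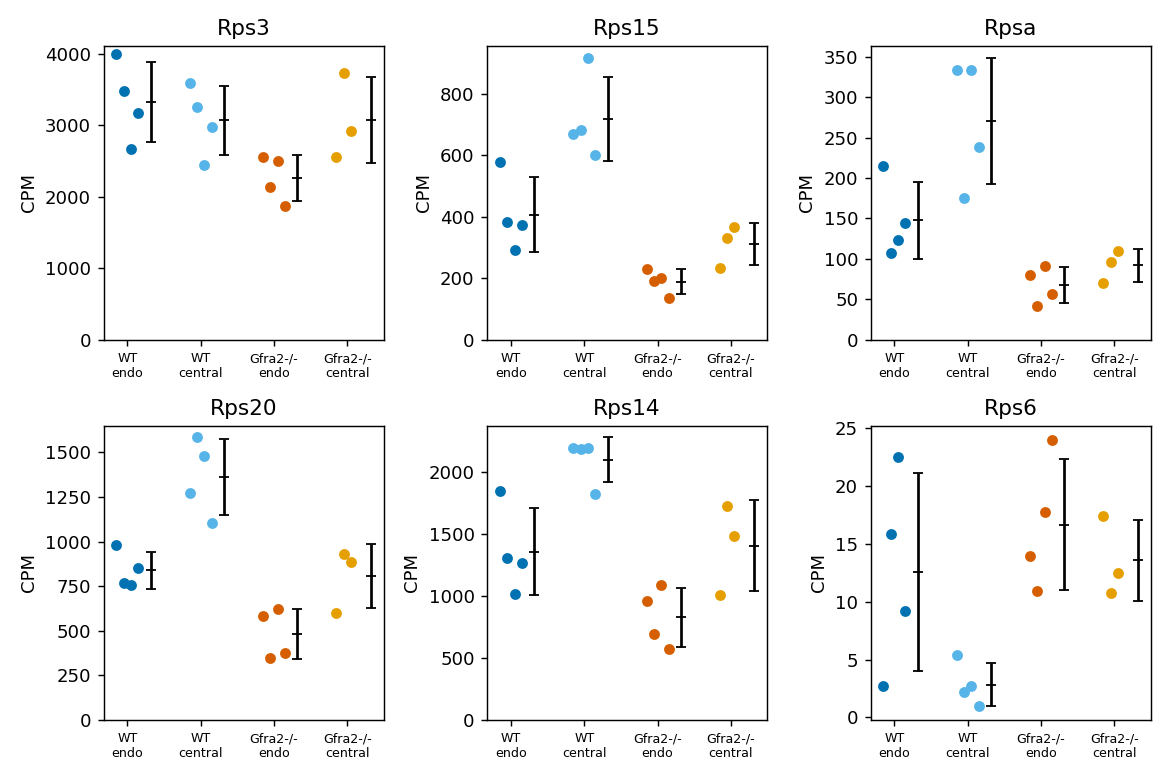
CPM (y axis) of 6 members in the 4 groups as labelled, 1 point per library, with the mean and SD beside each group. Rps15 and Rpsa have their lowest means in both groups labelled Gfra2-/-, and Rps6 is near 0 in central WT (1.01 to 5.43 CPM).

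Grouped by place in the subunit, head and body genes were counted separately, with no test of a difference between them. In endosteal HSCs 13 of 14 head and 15 of 18 body and platform genes had a lower estimate in libraries labelled Gfra2-/- (medians -0.57 and -0.62), and 5 and 7 were lower at an unadjusted p under 0.05. Of all genes 48.5% had a lower estimate there and 3.52% were lower at that p. In central HSCs 11 of 14 and 13 of 18 were lower (medians -0.67 and -0.28), where 48.6% of all genes were. Grouped by windows, the members without any of their own had larger errors, with a median SE of 0.77 in the endosteal comparison of genotypes, against 0.29 for the middle class and 0.25 for the genes with 48.3% or more. In that comparison 8 of the 12 genes without such windows, all 14 of the middle class and all 8 of the most distinct genes had a lower estimate, with medians of -0.21, -0.62 and -0.74. None of the 12 was past an unadjusted p of 0.05 in any comparison.

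Of the 10 members known from Diamond-Blackfan anaemia, 2 were lower at an unadjusted p under 0.05 in endosteal HSCs labelled Gfra2-/- (3.52% of all genes) and 1 in central ones (4.14%), and 0 in either comparison of compartments. Rps24, a body protein, was lower in both, at -0.89 (SE 0.34) in endosteal and -0.77 (SE 0.29) in central HSCs, and Rps15a in endosteal ones, at -0.71 (SE 0.29). Rps19, the most often mutated of them in patients, stood at 591, 387, 298 and 414 CPM in endosteal WT, 556, 608, 476 and 421 CPM in central WT, 347, 256, 324 and 199 CPM in endosteal and 277, 515 and 371 CPM in central libraries labelled Gfra2-/-. The groups overlapped in each comparison, and in endosteal HSCs the estimate was -0.58 (SE 0.28).

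Rps27a and Fau are made as fusions, of ubiquitin and of a ubiquitin-like protein, that are cut to release the ribosomal protein. Neither has a coding window of its own, and for Fau all 350 windows are also held by 1 pseudogene, Gm9843. Fau was measured at 24.3 to 29.7 CPM in endosteal WT, 21.5 to 48.2 CPM in central WT, 16.2 to 34.3 CPM in endosteal and 27.7 to 37.1 CPM in central libraries labelled Gfra2-/-. Rps27a varied more within groups, from 11.7 to 84.9 CPM in endosteal WT, 5.36 to 26.3 CPM in central WT, 15.6 to 54.3 CPM in endosteal and 22.4 to 50.3 CPM in central libraries labelled Gfra2-/-. No comparison of either gene had an unadjusted p under 0.05.

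The relation of Rps27l to Rps27 was compared as log2 of the ratio of their reads, with 0.5 added to each. Rps27 has no coding window of its own and 1.35% of windows over its whole transcript, against 51.7% and 77.6% for Rps27l. The size of the ratio is therefore not that of the mRNAs. Rps27 had 1 to 301 reads per library and Rps27l 102 to 2685. The ratio was 4.42 ± 0.39 (SD, n = 4) in endosteal WT, 5.53 ± 1.41 (n = 4) in central WT, 2.86 ± 1.41 (n = 4) in endosteal and 3.90 ± 0.64 (n = 3) in central libraries labelled Gfra2-/-. In endosteal HSCs the difference of Gfra2-/- from WT was -1.56, with p = 0.0571 in the exact two-sided permutation test and 0.190 adjusted over the 4 comparisons. Without library D labelled Gfra2-/- it was -0.88, and the difference between compartments labelled Gfra2-/- was -0.37. The other differences were -1.11, -1.05 and -1.62, with adjusted p of 0.190, 0.286 and 0.190 in the exact permutation test, whose smallest possible p is 0.0286. Without central WT library B the difference between WT compartments was -1.81. The 6.54 and 6.10 of central WT libraries A and C rest on 1 read of Rps27 each. The 0.82 of endosteal library D labelled Gfra2-/- rests on 301 reads of Rps27, the most of its group, and 531 of Rps27l, the fewest. Rps27l stood at 46.5 CPM in that library and at 97.8 to 135.5 CPM in the others of its group.

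Genes that build or regulate the small subunit were counted in the same way, with no test against its proteins. The table held 40 assembly factors, of which 39 were tested, and 0 passed the FDR in any comparison. In endosteal HSCs 23 had a higher and 16 a lower estimate in libraries labelled Gfra2-/-, with a median of 0.22, and 1 was higher (Rrp7a) and 1 lower (Utp14a) at an unadjusted p under 0.05, where 3.18% and 3.52% of all genes were. In WT mice 4 were higher in endosteal HSCs at that p and 2 lower, where 4.43% and 3.46% of all genes were. The 4 were Nop56 (2.42, SE 0.82), a core protein of box C/D particles that methylate rRNA, Nop9 (2.76, SE 0.98), Pno1 (2.27, SE 0.91) and Noc4l (1.91, SE 0.67). Between compartments labelled Gfra2-/-, 4 were higher in endosteal HSCs at that p and 0 lower, where 2.74% and 2.05% of all genes were. They were Nat10, Nop58, Utp4 and again Nop56 (1.11, SE 0.35, adjusted p = 0.896 in edgeR).

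The table held 12 regulators (S6 kinases and factors that act on the subunit or on these mRNAs), of which 11 were tested and 0 passed the FDR in any comparison in edgeR. In endosteal HSCs 5 had a higher and 6 a lower estimate in libraries labelled Gfra2-/-, with a median of -0.16. At an unadjusted p under 0.05, 1 was lower and 0 higher, where 3.52% and 3.18% of all genes were. In central HSCs 5 had a higher and 6 a lower estimate, with a median of -0.12. There 3 were lower and 1 higher at that p, where 4.14% and 4.6% of all genes were. Rack1, a scaffold protein that sits on the head of the subunit, had lower estimates in libraries labelled Gfra2-/-, at -0.79 (SE 0.24, adjusted p = 0.689 in edgeR) in endosteal and -0.50 (SE 0.21, adjusted p = 0.54 in edgeR) in central HSCs. Larp1, which binds the pyrimidine tract of these mRNAs, was at -1.66 (SE 0.63) in central HSCs and -0.19 (SE 0.39) in endosteal ones. Zfp598 had the largest estimate downwards in central HSCs, at -2.03 (SE 0.82), and was at -1.03 (SE 0.50) in endosteal ones. Rps6ka1, a kinase of Rps6, was at 1.55 (SE 0.49) in central HSCs. The S6 kinase gene Rps6kb1 was at 0.82 (SE 0.40) in endosteal HSCs and 0.66 (SE 0.56) in central ones. The 50 large-subunit genes tested in endosteal HSCs had a median of -0.47 in the comparison of genotypes, with 46 estimates lower and 12 lower at an unadjusted p under 0.05. Of all genes 48.5% and 3.52% were. Their medians were -0.54 between central genotypes, -0.27 between WT compartments and -0.25 between Gfra2-/- compartments. Those of the 34 small-subunit genes were -0.39, -0.17 and -0.45.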

How the data were processed

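The authors aligned single-end 50-base reads of HSC pools to GRCm38 with GSNAP (2015-09-29), reporting 1 position per read and none for reads with more, and counted reads per gene with HTSeq (0.5.3p3) without strand. They deposited raw counts for 46078 genes, 92 spike-in RNAs and 5 summary categories. Columns were tied to groups by their listing in the study's supplement, 15 libraries in all, and 1 column of values was not mapped and not used. Columns carry no replicate numbers.

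Symbols came from GENCODE M21, which holds 45229 of the genes. For each member the shortest APPRIS principal transcript was used, its coding length without the stop codon set the level per kilobase, and each 50-base window was matched exactly, on either strand, to all transcripts, so copies outside annotated transcripts were missed. CPM of members are counts over the TMM-scaled library total, and CPM of cell markers are counts over the plain total of gene reads. Reads in no annotated gene were 10.6% to 29.9% and ambiguous ones 4.08% to 9.25% of the reads in the table. Reads not aligned were 20.1% to 65.6%, and the category for reads not placed uniquely held 0. How many of the unaligned reads matched several places is not known. None of these categories entered a total.

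Each comparison used edgeR 4.0.16 (R 4.3.3) on the libraries of its 2 groups (filterByExpr, TMM, quasi-likelihood, Benjamini-Hochberg over all genes), and the interaction used all 15. DESeq2 1.42.0 was an alternative, as in the study. The scripts were checked on simulated counts. Libraries above 0.5% of spike-in reads were also fitted alone, a cut on the measured share and not a labelled batch. A limit of 1500000 reads on genes and 20% mitochondrial reads was tried, without the study's limit on high coverage genes. It is stricter than the limit of the study, which is set on uniquely placed reads.

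Genes named were the 8 members Rps6, Rps14, Rps19, Rpsa, Fau, Rps27, Rps27l and Rps27a, the 3 smallest p and the extremes of each comparison, and the 3 highest and lowest levels. The single values of 3 members, which stay in all counts and sums, are not reported here. Others were chosen after their values were seen. The members and lists were chosen with earlier results of these data known. Reads copied by PCR carry no molecular tags, so intervals cover counting error only.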

Additional observations from a re-analysis of the deposited data

Results flagged for a closer look

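In groups of 4 libraries, 48 groups of values (the summed share and 15 named members) were examined for a library far from the other 3, and 5 stood out, where chance gives about 1 in 20. In central WT, Rps14 was 1826 CPM in library D against 2190 to 2198 CPM in the others, and Rps27 was 10.9 CPM in library B against 0.91 to 2.02 CPM. In endosteal WT, Rps21 was 275 CPM in library A against 110 to 136 CPM. In endosteal library D labelled Gfra2-/-, the one with B cell and erythroid markers, Rps12 was 23.4 CPM against 6.70 to 9.03 CPM and Rps27 was 26.4 CPM against 8.08 to 10.9 CPM. No member had an interaction of genotype and compartment past the FDR in edgeR.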

How the results depend on the processing

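No paired analysis was possible because library names in the count table hold no replicate number. The count of members past the FDR of 0.1 was 0 in edgeR in all 5 comparisons and under all alternatives run except DESeq2, which gave 2 in WT compartments, 4 in central and 3 in endosteal genotypes and 1 in the interaction. Leaving out each library in turn gave 0 throughout. The 23 named fold changes kept their direction in all 399 alternative values, those with spike-in scaling taken relative to the median of all genes, and 7 passed the threshold, all in DESeq2. Spike-in size factors moved the median of all genes to 1.58, -0.46, 1.75 and -0.28 in the 4 comparisons (WT compartments, Gfra2-/- compartments, central and endosteal genotypes), so that, as fitted, 1, 31, 1 and 30 members had an estimate below 0, and in WT compartments and central genotypes nearly all turned higher with all genes. Relative to that median 25, 29, 24 and 29 members were lower. Of these, 0 had an unadjusted p under 0.05 in the spike-in fit. That p tests a change from 0 and not from the median, so it does not show whether members were lower than the median. The mean share of reads was 1.91%, 2.23%, 1.23% and 1.79% of nuclear protein-coding reads (endosteal WT, central WT, endosteal and central labelled Gfra2-/-), and 1.99% in central WT with the named pseudogenes added. The difference of Rps27l to Rps27 kept its sign in each alternative, and 4 against 4 or 3 libraries could hardly reach an adjusted p of 0.05. Members with few reads of their own limit what depth can show. Windows over the whole transcript and the interaction without both D libraries were alternatives chosen after seeing the data.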
